A study of Drosophila melanogaster with 6 samples.

Results

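The Wnt gene cluster of Drosophila melanogaster on chromosome arm 2L was taken as the stretch from 7240000 to 7380000 (dm3, 140 kb), which holds Wnt4, wg, Wnt6 and Wnt10. Every ChIP-seq peak of Cmi that touched this stretch was counted as a member, whatever its width or its presence in other lists. This gave 47 peaks of the 37144 in the series, of which 28 came from embryos, 12 from white prepupae, 5 from larvae of the wandering stage of the last instar and 2 from S2 cells, a line derived from fly embryos. Each ChIP library was made from formaldehyde-fixed chromatin of whole animals or of cultured cells with an antiserum against Cmi, had an input library beside it and carried the labelled genotype Y cn bw sp, which the labels give for S2 cells too. The embryo list came from data published earlier, has no sample of its own here, and its genotype and age are not given in the labels. There was 1 ChIP library per group, so no difference below has a replicate check and none was tested.

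Wnt proteins are secreted, lipid-modified ligands that bind Frizzled receptors, in the canonical branch together with the co-receptor Arrow, and stabilise Armadillo, the fly beta-catenin, which then acts with the DNA-binding protein Pangolin on target genes. The ligand gene wg (wingless) is the fly counterpart of mammalian Wnt1, sets segment polarity in the embryo and patterns the wing, leg and eye discs of the larva. Cmi, also named Lpt, belongs to the MLR complex, whose methyltransferase Trr places histone H3 lysine 4 monomethylation at enhancers. Genes of developmental ligands such as wg are known to be controlled by many separate enhancers spread over long stretches of DNA.

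In the order of the Release 6 gene table, Wnt4, wg, Wnt6 and Wnt10 follow each other along 2L, with CG31909 listed between Wnt4 and wg and lncRNA:CR45304 between wg and Wnt6. That table uses another build than the peaks, so peaks are given by position and were not placed on promoters, introns or the space between genes. Wnt4 encodes a ligand with roles in cell migration and in the ovary, and Wnt6 a ligand expressed in a pattern much like that of wg in imaginal discs. Wnt10 encodes a further ligand of the family.

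The 4 lists filled this stretch very unequally. Embryonic peaks covered 19183 bp, or 13.7% of the interval, prepupal peaks 6036 bp (4.31%), larval peaks 3557 bp (2.54%) and S2 peaks 1984 bp (1.42%). Over all of 2L the same lists covered 10.3%, 5.03%, 5.52% and 4.51%. Embryonic cover was thus above that of the arm, and prepupal, larval and S2 cover below it. Together the peaks covered 25157 bp (18.0% of the interval), of which 4587 bp lay in peaks of at least 2 lists, 1016 bp in peaks of 3 lists and 0 bp in peaks of all 4. The lists give no read counts, so depth is unknown, and a peak that is missing from a list may be unbound or under the caller's limit. In whole animals, binding in few cells and weak binding in many cells cannot be told apart.

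**Figure D1:**
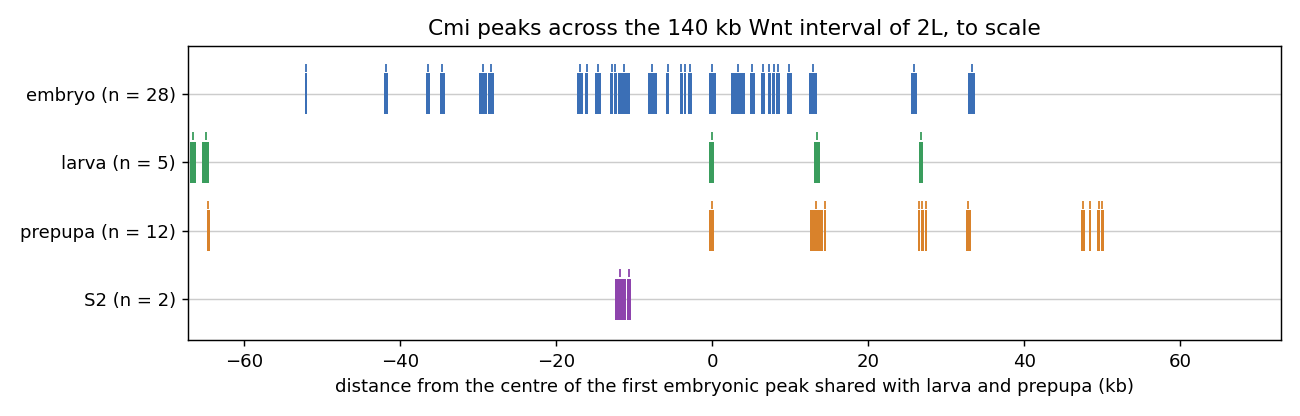
Each block is a Cmi peak drawn to scale, with a tick above its midpoint, in the embryo, larva, prepupa and S2 lists. The horizontal axis gives the distance in kb from the centre of the embryonic peak at 7306695 to 7307658, and its ends are the ends of the interval. Embryonic peaks crowd into a run around this centre, S2 cells have a single pair of peaks to its left, and the last 4 prepupal peaks stand alone on the right.

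The lists also occupied different parts of the interval. In consecutive pieces of 20 kb, from left to right, the embryo list had 1, 5, 7, 12, 2, 1 and 0 peak midpoints. The prepupa list had 1, 0, 0, 1, 6, 4 and 0, and the larva list 2, 0, 0, 1, 2, 0 and 0. Both S2 midpoints fell in the piece from 7280001 to 7300000. Embryonic peaks were therefore most numerous from 7280001 to 7320000, where 19 of the 28 midpoints lay, and prepupal peaks from 7320001 to 7360000, where 10 of the 12 lay. No list had a peak in the last 20 kb, from 7360001 to 7380000, and the longest stretch without any peak was the 22631 bp up to the right edge.

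The edges of the stretch fell differently in each list. On the left, a larval peak ended 35 bp outside the edge (7239190 to 7239965), and the first larval peak inside began 220 bp after it. The nearest prepupal peak outside ended 351 bp before the edge, and the first inside lay at 7242361 to 7242701. These larval and prepupal peaks at the left edge thus belong to a group that the edge cuts through. The embryo and S2 lists had no peak near this edge, with the last peaks outside ending 16778 bp and 25917 bp before it. On the right, the nearest peak outside began 6732 bp beyond the edge in embryos and 6989 bp beyond it in larvae. The prepupa list had its next peak 36648 bp and the S2 list 41988 bp beyond the edge.

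In embryos, Cmi peaks formed a dense run in the middle of the cluster. From 7289793 to 7320578, 20 peaks followed each other with gaps of at most 2357 bp, and they covered 13807 bp, or 44.8% of these 30786 bp. This run held 72.0% of the sequence covered by embryonic peaks in the interval. When peaks of 2L were joined across gaps of up to 3 kb, a limit chosen after the positions had been seen, it ranked 3rd by number of peaks, level with 1 other, among 1072 embryonic runs of the arm, the longest of which had 27 peaks. With gaps of up to 5 kb it was the same run but ranked 11th of 767. With gaps of up to 2 kb it broke up, and its largest piece, from 7306695 to 7317316, held 8 peaks and ranked 33rd of 1331.

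The embryonic peaks were of ordinary width for their list. They ranged from 288 to 1826 bp with a median of 584 bp, against 537 bp over all embryonic peaks, and 18 of the 28 were wider than that list median. The widest, at 7309531 to 7311356 (1826 bp), was wider than 90.5% of all embryonic peaks and had no counterpart in any other list. The next were 7295129 to 7296571 (1443 bp), 7298929 to 7300046 (1118 bp), 7319514 to 7320578 (1065 bp) and 7277280 to 7278292 (1013 bp). Of these 5 widest peaks, the 3rd and the 5th, too, were found in embryos alone.

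Left of the run lay 6 embryonic peaks, spread from 7254913 to 7279141, and all 6 were found in embryos alone. None of these had a peak of another list within 12211 bp of it. Right of the run were only 2 embryonic peaks, at 7332621 to 7333355 (735 bp) and 7339928 to 7340884 (957 bp), the latter shared with prepupae. Across the interval, 20 of the 28 embryonic peaks had no peak of any other list within 2 kb.

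Larval Cmi peaks were few, with 2 near the left edge, 762 bp apart, and 3 single ones further right. Their widths were 806 bp (7240221 to 7241026), 801 bp (7241789 to 7242589), 571 bp (7306781 to 7307351), 849 bp (7320134 to 7320982) and 530 bp (7333645 to 7334174), with a median of 801 bp against 792 bp for the whole list. Between the peaks of 801 bp and 571 bp lay 64191 bp without any larval peak, a stretch in which embryos had 17 complete peaks. The first larval peak was the only larval one without a counterpart in another list.

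Prepupal peaks were mostly narrow and lay in small groups. They ranged from 220 to 1759 bp with a median of 358 bp, against 491.5 bp over the whole list, and 3 of the 12 were wider than that list median. The widest, at 7319623 to 7321381 (1759 bp), exceeded 92.5% of all prepupal peaks. The next were 7339651 to 7340349 (699 bp), 7306755 to 7307403 (649 bp), 7354485 to 7354974 (490 bp) and 7356947 to 7357369 (423 bp). At 7321484 to 7321703 and 7333546 to 7333765 stood peaks of 220 bp, the smallest width in the entire prepupa list and smaller than the smallest peak of the embryo (280 bp), larva (320 bp) and S2 (340 bp) lists. Many prepupal peaks elsewhere had this same width, which ranked 9049th from the widest among the 9236 of the list, with none narrower. No other list held a peak this narrow, and why the smallest width differs between lists was not tested.

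**Figure D2:**
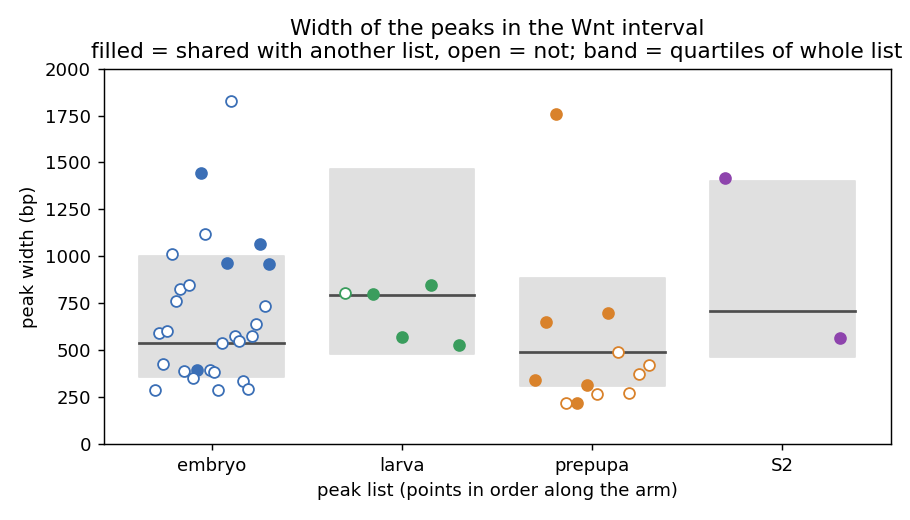
Points are the widths in bp of the 47 peaks, in order along the arm within each list, filled where the peak shares at least 1 bp with another list and open where it does not. The grey band spans the quartiles of the whole list and the line is its median. The widest embryonic peak (1826 bp) is open, the widest prepupal peak (1759 bp) is filled, and 2 prepupal peaks sit at 220 bp.

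S2 cells had Cmi peaks at a single site. They were 1420 bp (7294653 to 7296072) and 564 bp wide (7296200 to 7296763), 127 bp apart, against a median of 711 bp for the list. Both lay inside the embryonic run and shared 1565 bp, or 78.9% of their sequence, with embryonic peaks. The nearest larval peak was 10017 bp away and the nearest prepupal peak 9991 bp. The wider S2 peak reached across the gap between the embryonic peaks at 7294508 to 7294901 and 7295129 to 7296571, so 2 peaks of each list formed 1 merged region of 2256 bp.

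When overlapping peaks of the 4 lists were merged, the interval held 36 regions. Of these, 30 (83.3%) came from a single list, 4 (11.1%) from 2 lists, 2 (5.56%) from 3 lists and 0 from all 4. On the whole arm the corresponding shares of 3685 regions were 71.4%, 13.8%, 8.49% and 6.27%. Embryos alone accounted for 23 regions (63.9%, against 51.0% on 2L), prepupae alone for 6 (16.7%, against 9.80%) and larvae alone for 1 (2.78%, against 3.18%). Of the 276 regions of 2L found in S2 cells alone (7.49% of the regions of the arm), 0 were here.

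The most tightly matching site of the cluster was the region from 7306695 to 7307658, found in embryos, larvae and prepupae. The larval peak of 571 bp lay wholly inside the prepupal peak of 649 bp, and that wholly inside the embryonic peak of 964 bp. Larval and prepupal peaks had 88.0% of their joint length in common, the highest value of any overlapping pair in the interval. Their midpoints were 13 bp apart, and the embryonic midpoint was 110.5 bp from the larval one. The nearest S2 peak ended 9931 bp to the left.

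The other region of these same lists, from 7319514 to 7321381, was shared less evenly. There the prepupal peak of 1759 bp contained the larval peak of 849 bp completely, with midpoints 56 bp apart. The embryonic peak of 1065 bp lay further left, with its midpoint 512 bp from the larval one, and shared 445 bp with it. This site closed the embryonic run, and the prepupal peak extended 803 bp past its end.

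Larvae and prepupae shared 2 further regions that embryos lacked. At 7241789 to 7242701 the larval and the prepupal peak had 229 bp in common, 28.6% of the larval peak and 67.2% of the prepupal one. From 7333546 to 7334250, a single larval peak of 530 bp overlapped 2 prepupal peaks of 220 and 317 bp, by 121 and 241 bp. An embryonic peak ended 190 bp before this region without touching it, so at this place the separation of embryos from the later stages rests on a short gap. The region of embryos and prepupae, from 7339651 to 7340884, had 422 bp in common, and its nearest larval peak was 5476 bp from the prepupal one.

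Prepupae had a group of 4 peaks of their own from 7354485 to 7357369. These were 490, 273, 375 and 423 bp wide, each narrower than the median of the prepupa list, with gaps of 442, 802 and 80 bp. The nearest embryonic peak lay 13600 bp to the left, across the longest gap between peaks of any list inside the interval (7340885 to 7354484), and the nearest larval peak was 20310 bp away. The other 2 prepupal peaks without a counterpart were small neighbours of shared ones, 501 bp and 289 bp from the nearest larval peak.

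Counterparts in other lists were less frequent among the embryonic and prepupal peaks of the cluster than over their whole lists. Of the 28 embryonic peaks, 5 (17.9%, 95% exact interval 6.06 to 36.9) overlapped another list by at least 1 bp, where 44.0% of all embryonic peaks did so and 36.2% of those on 2L. Of the 12 prepupal peaks, 6 (50%, 21.1 to 78.9) did so, against 77.7% of the list. Of the 5 larval peaks, 4 (80.0%, 28.4 to 99.5) had a counterpart, against 90.5%, and both S2 peaks did, against 67.7%. These intervals reflect how few peaks there were and treat neighbours as independent, which they need not be. For embryos alone the value of the whole list lay outside the interval, while that of 2L lay inside it. The shares moved with the choice of peaks. Among peaks above their list's median width, all 3 prepupal peaks had a counterpart, against 78.9% of such peaks in the list, which turns the direction, and 4 of 18 embryonic peaks did (22.2%, against 44.7%). With the 6049 widest peaks of each list, 4 of 11 embryonic peaks did (36.4%, against 63.8%). The exact intervals of these 2 embryonic shares, 6.41 to 47.6% and 10.9 to 69.2%, took in the list's value under the same setting.

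By pairs, embryonic peaks overlapped larval ones in 2 of 28 cases (7.14%, against 30.4% over the list and 26.1% on 2L), prepupal ones in 3 (10.7%, against 28.0% and 24.2%) and S2 ones in 2 (7.14%, against 24.6% and 17.1%). The exact interval for S2, from 0.88 to 23.5%, takes in the value of 2L but not that of the list. The interval for prepupae, from 2.27 to 28.2%, takes in both, and that for larvae, from 0.88 to 23.5%, takes in neither. With only 5 larval and 2 S2 peaks in the interval, few of the 28 embryonic peaks could have met one. The embryonic shares with larvae and S2 cells therefore cannot separate low sharing from the few peaks of those lists. Larval peaks were found in prepupae in 4 of 5 cases (80.0%, against 68.2% and 67.7%) and in embryos in 2 (40.0%, against 67.0% and 66.3%). By the midpoint rule, in which the middle of a peak must lie in the other peak, 2 of the 5 larval peaks were found in prepupae. Prepupal peaks overlapped larval ones in 5 of 12 cases (41.7%, against 61.5% and 60.8%) and embryonic ones in 3 (25%, against 54.0% and 52.4%). The exact intervals of these larval and prepupal shares under the 1 bp rule take in the values of both the list and 2L. The S2 list met neither of the later stages here. With 0 of 12 prepupal peaks in S2 cells, the exact interval allows a share of up to 26.5%, where the whole list gave 37.8% and 2L 33.2%. With 0 of 5 larval peaks it allows up to 52.2%, which takes in the 44.6% of the whole list. Both limits treat peaks as independent, while the S2 list had only 2 peaks here to be met, at a single site. Both S2 peaks overlapped embryonic ones (55.9% of the list did), and neither overlapped a larval (47.4%) or a prepupal peak (41.1%).

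**Figure D3:**
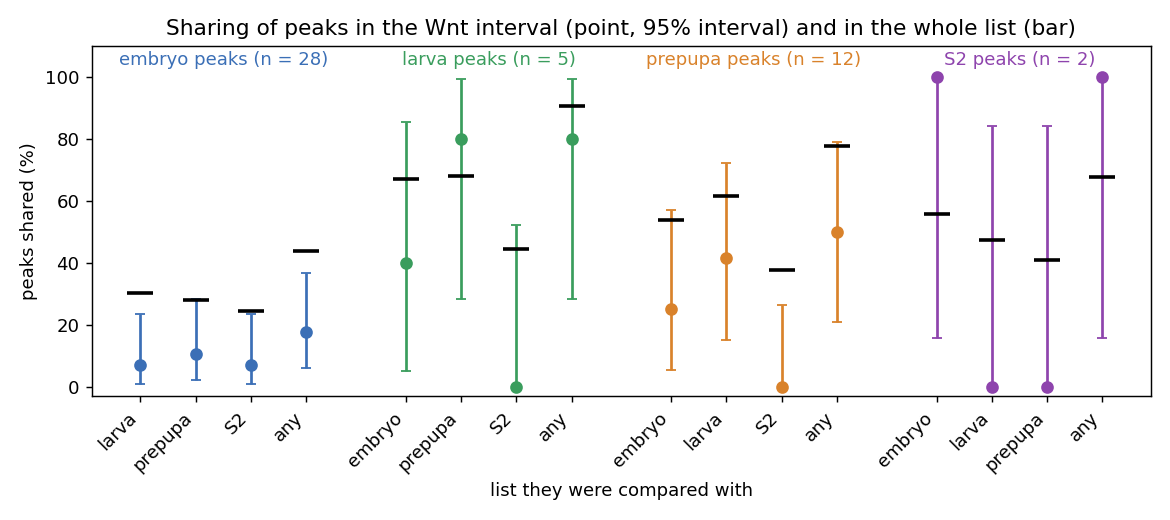
Points give the percentage of each list's peaks in the interval that share at least 1 bp with the list named below, with the exact 95% interval over peaks, and black bars the same percentage over the whole list. All 4 embryonic points lie below their bars, at 17.9% for any other list against 44.0%, while the intervals of larval and S2 peaks are wide.

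Set against other stretches of the same length, the Wnt cluster stood above the middle of the arm in embryonic Cmi peaks, but many windows held more. 2L was divided into 163 adjacent windows of 140 kb, laid out from the edges of the interval. With 28 embryonic peaks, the cluster ranked 38th, level with 1 other window, where the median window had 17 peaks and the fullest 49. By covered sequence it ranked 46th, at 1.48 times the median of 12947 bp. In all, 23.9% of the windows had at least as many embryonic peaks. Counting only peaks above the list's median width, of which the cluster had 18, it ranked 10th and exceeded 92.0% of the windows.

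The other lists stood nearer to or below the middle of the arm. The prepupa list ranked 51st by peaks (12 against a median of 8) but 83rd by covered sequence (6036 against 6180 bp). With peaks above the list's median width only, its peak count ranked 90th, which puts it below the middle of the arm. The larva list ranked 86th by peaks (5 against 6) and 112th by covered sequence (3557 against 6517 bp). The S2 list ranked 97th by peaks (2 against 4) and 102nd by covered sequence (1984 against 3355 bp). The share of windows with at least as many peaks was 37.4% for prepupae, 61.3% for larvae and 68.7% for S2 cells. By covered sequence it was 28.2% for embryos, 50.9% for prepupae, 69.3% for larvae and 62.6% for S2 cells.

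**Figure D4:**
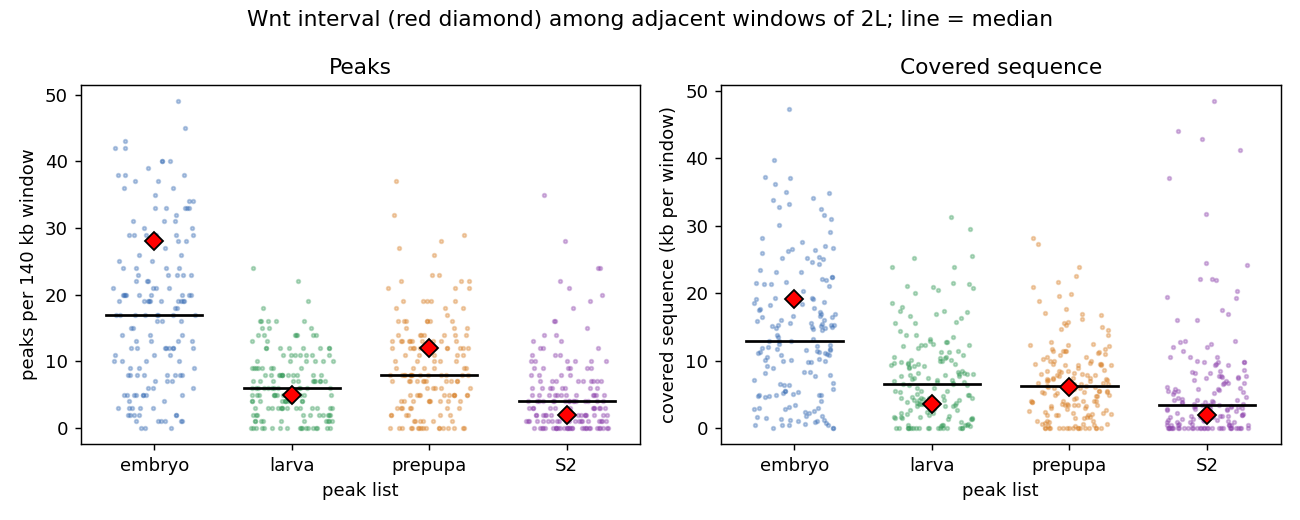
Each dot is 1 of 163 adjacent 140 kb windows of 2L, by number of peaks (left) and by covered sequence in kb (right), for each list. The black line is the median window and the red diamond the Wnt interval, which lies above the median in embryos (28 against 17 peaks) and below it in larvae and S2 cells.

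The balance between lists was also compared among windows with a like number of embryonic peaks, a choice made after the data had been seen. In the 23 other windows within 4 embryonic peaks of the Wnt cluster (24 to 32), the median was 7 larval, 3 S2 and 11 prepupal peaks, against 5, 2 and 12 in the cluster. More larval peaks than here were found in 17 of these windows and fewer in 6, and more S2 peaks in 14 and fewer in 7. Prepupal peaks were more numerous in 11 and less so in 12, so the prepupa list stood in the middle of these windows.

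Over the 116 windows with 10 or more embryonic peaks, larval cover amounted to 0.185 times embryonic cover in the Wnt cluster, the 16th lowest value, against a median of 0.445. The S2 ratio of 0.103 was the 30th lowest (median 0.276) and the prepupal ratio of 0.315 the 37th lowest (median 0.425). In these 116 windows, the share of embryonic peaks with any counterpart ranged from 3.45 to 80.0% with a median of 34.6%, and the 17.9% of the Wnt cluster was the 14th lowest. Among the 71 windows with 10 or more prepupal peaks, its 50% was the 4th lowest, level with 2 others, against a median of 81.8%. With all peaks counted, a low share of shared peaks was found here in both lists, though other windows of the arm went lower in each. The exact intervals of both shares took in the value of 2L (36.2% for embryos and 76.8% for prepupae). Among prepupal peaks above their list's median width the direction turned, as all 3 here had a counterpart (100%, against 78.9% in the list).

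**Figure D5:**
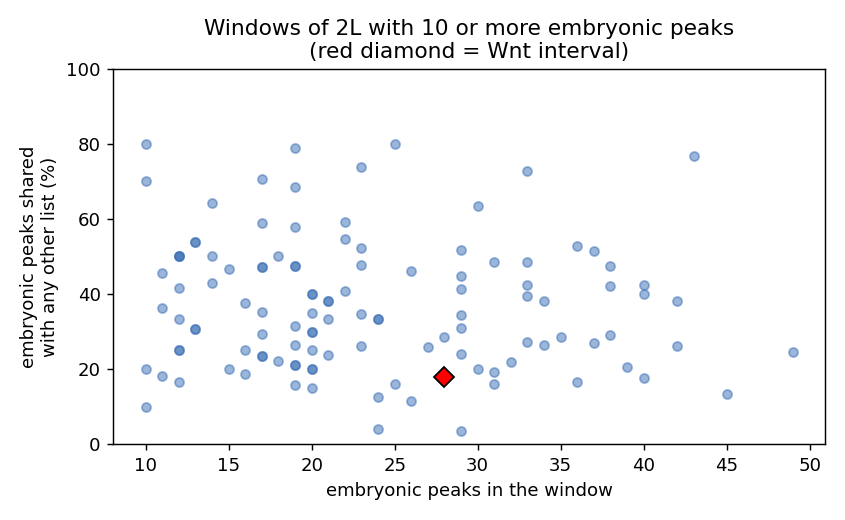
Each point is 1 of the 116 windows of 2L with 10 or more embryonic peaks, with the number of embryonic peaks on the horizontal and the percentage of them shared with any other list on the vertical axis. The Wnt interval (red diamond, 28 peaks, 17.9%) lies below the median of 34.6%, with 13 windows lower.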

How the data were processed

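Cmi ChIP-seq peak lists from S2 cells, wandering larvae and white prepupae and a list from embryos were used. The authors deposited each list as 3 columns (chromosome, start, end) without score, height or p-value, and input libraries have no values here. The submitters' processing notes name BWA, MACS2 and dm3, while versions, peak threshold, use of inputs, pooling and depth are not given in the sources used. Starts were converted to count from 1. Peaks belonged to the interval when they overlapped it by at least 1 bp. Sharing meant at least 1 bp in common, merging joined overlapping or touching peaks, and shares carry exact (Clopper-Pearson) 95% intervals. Windows of 140 kb lay edge to edge on 2L up to the last peak, and a peak across a border counted in both windows. Ranks are descriptions, with no random placement and no test. The peaks named are the 5 widest per list, regions of all 4 lists, the 3 widest regions of each single list, the longest gap between peaks and the peaks next to each edge, besides which the shared regions, the embryonic run and the prepupal group were named after their values were seen. The interval, the gene list and these rules were chosen with earlier results of these data known. The wider list of Wnt pathway genes was not analysed here, and no sequence was printed, since no genome of dm3 was used. Overlap and window counting was tested on simulated peaks. Python 3.11.15, numpy 2.4.6, scipy 1.17.1 and matplotlib 3.10.9 were used.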

Additional observations from a re-analysis of the deposited data

How the results depend on the processing

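Of 62 recomputed counts, lengths and ranks, 52 stayed within 1.5 times of the reported value. Many of these had little or no room to move, so the 52 overstate stability. Counting peaks by their midpoint changed nothing, because no peak crossed an edge of the interval. Leaving out windows without any peak kept 162 of 163, and the S2 list kept all of its 6049 peaks at equal list lengths. The embryonic percentages of lower windows, 76.1% by peaks and 71.8% by covered sequence, could not rise 1.5 times. The number of regions in all 4 lists was 0 under each of the 4 alternatives run for it. A stricter overlap or fewer peaks could not have raised this 0, so only setting every peak to 500 bp could have changed it. Of 80 recomputed shares, 78 stayed in their binomial interval, but with 2 to 5 larval or S2 peaks that interval is too wide to show stability. The intervals of embryos (6.06 to 36.9%) and prepupae (21.1 to 78.9%) were wide too, and an embryonic share of 36.4% still lay inside. Shares of 0 could not rise with a stricter overlap or fewer peaks. The larval share with any counterpart fell from 80.0% to 40.0% (midpoint rule, or equal list lengths) and 33.3% (wide peaks), and the S2 share from 100% to 50% with every peak set to 500 bp. Restricted to peaks above the median width of their list, the interval kept 18 embryonic, 3 larval, 3 prepupal and 1 S2 peaks, prepupal cover fell to 3107 bp, and all 3 wide prepupal peaks overlapped an embryonic one (100% shared with embryos and with any list). The prepupal peak count then exceeded that of 36.8% of the windows, against 62.6% with all peaks. When only the 6049 widest peaks of each list were used, there were 11 embryonic peaks covering 11553 bp, 6 prepupal, 5 larval and 2 S2 peaks. The embryonic and prepupal counts fell, as such a cut can only lower them, while the larval and S2 counts did not change. Of these embryonic peaks, 36.4% were shared. The longest embryonic run fell to 8 peaks when only gaps of up to 2 kb were joined. The 2 kb and 5 kb limits, the windows of like embryonic number and the shares of whole lists under the same setting were added after the data had been seen. No paired analysis was possible because each group has 1 library and the labels give no replicate numbers.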
